A study of Mus musculus with 6 samples.

Results

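The Rab family is described here in murine N18 neuroblastoma cells after silencing of Rest, whose product is also called NRSF. Its members were all array spots whose platform gene symbol is Rab followed by a number and an optional letter or digit, or begins with Rabl, Rabac, Rabep, Rabgap, Rabif or Rabggt, and the spots of a gene were averaged. This gave 71 genes on 147 spots, of 19087 genes with a spot of their own: 59 numbered Rab genes, 3 Rab-like genes (Rabl2, Rabl3 and Rabl6) and 9 helpers of the Rab cycle. The label fits the symbols, with the helpers added to the GTPases themselves. RNA was compared on 6 two-channel Agilent arrays, each setting cells transfected with an siRNA against Nrsf directly against cells transfected with a scrambled siRNA, and no other treatment is given in the labels. The siRNA sample carried Cy5 on arrays 1 to 3 and Cy3 on arrays 4 to 6. All samples are of 1 cell line. The design text also speaks of overexpression beside silencing, and of human genes, which goes against the title and sample labels (siRNA, mouse); the labels were followed. It calls the 6 measurements independent without naming separate transfections. A p-value reflects only how much the 6 arrays scatter, which can include technical scatter. In the main fit per gene this is the scatter left within each dye orientation. In bulk RNA, less RNA per cell and fewer cells of a kind cannot be told apart.

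Each value is the log2 of the siRNA signal over the scrambled signal, so a positive value means more RNA in the siRNA-treated cells. The direction is likely rather than settled, from the sample names and dyes; with the opposite ratio all signs would turn. No source names the log base, and 2 was assumed. Rest itself was lower on all 6 arrays, at -0.16, -0.34, -0.33, -0.27, -0.50 and -0.49 on arrays 1 to 6, with a mean of -0.35 ± 0.13 (SD, n = 6) and an adjusted p of 0.00353. Of its 3 spots, 1 stood at -0.054. Array 1 stood apart from the others: over the 70 members tested it correlated with arrays 2 to 6 at 0.081 to 0.27, while pairs among arrays 2 to 6 gave 0.56 to 0.88 (a description over genes, which are not independent). Results are therefore also given without array 1. Ratios give no level, so the presence of neuroblastoma markers could not be checked. Of 7 measured markers of noradrenergic neuroblastoma, Phox2a, Hand2 and Chga rose and Gata3 fell. Gata3 was called whichever array was left out, whereas Phox2a was not called without array 4 or 5 (adjusted p = 0.0579 and 0.0677), Hand2 without array 2, 3, 4 or 5 (0.0636 to 0.112) and Chga without array 2, 3, 4, 5 or 6 (0.0509 to 0.0727). None of 3 glial, 5 mesenchymal and 4 immune markers was called in limma, where 1, 0 and 0 had an unadjusted p under 0.05.

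Rabs are small GTPases that mark membranes and direct vesicle budding, movement, tethering and fusion. They switch between a GDP-bound form, which GDP dissociation inhibitors keep in the cytosol, and an active GTP-bound form on membranes. Exchange factors turn them on, GTPase-activating proteins turn them off, and a geranylgeranyl group added by Rab geranylgeranyl transferase anchors them. In neurons Rabs are known for synaptic vesicle release, axonal transport and endosomal sorting. Rest is a zinc finger repressor that binds the RE1 element, which has a left and a right part.

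The sequences shown are promoter windows of 6 members called in the comparison below: Rab6a, Rab6b and Rab2b, the largest rises, Rab7, which fell on each of its spots, and Rabl3 and Rab8b, which hold letters of the RE1 element. Each window covers 250 bases before and 50 after the annotated start in RefSeq (GRCm38.p6), read 5′ to 3′ on the gene's strand. They lie at chr7:100607336-100607635 on the plus strand for Rab6a, chr9:103111824-103112123 on the plus strand for Rab6b, chr14:52279346-52279645 on the minus strand for Rab2b, chr6:88045221-88045520 on the minus strand for Rab7 (the first listed of 2 windows), chr16:37539644-37539943 on the plus strand for Rabl3 and chr9:66919656-66919955 on the minus strand for Rab8b. Capitals mark CAGCACC, taken from the left part of the element, and GGACAG, from the right part.
Rab6a: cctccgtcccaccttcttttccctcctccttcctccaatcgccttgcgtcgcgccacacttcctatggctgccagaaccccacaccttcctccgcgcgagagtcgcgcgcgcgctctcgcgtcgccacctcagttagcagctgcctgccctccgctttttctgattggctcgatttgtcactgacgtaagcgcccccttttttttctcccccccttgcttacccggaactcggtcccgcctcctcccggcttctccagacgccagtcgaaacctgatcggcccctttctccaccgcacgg
Rab6b: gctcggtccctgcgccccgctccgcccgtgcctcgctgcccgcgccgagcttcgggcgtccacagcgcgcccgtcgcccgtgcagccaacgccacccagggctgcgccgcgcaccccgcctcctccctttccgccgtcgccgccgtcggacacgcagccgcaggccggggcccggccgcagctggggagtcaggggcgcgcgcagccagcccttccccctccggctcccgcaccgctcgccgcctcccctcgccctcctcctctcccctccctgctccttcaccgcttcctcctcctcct
Rab2b: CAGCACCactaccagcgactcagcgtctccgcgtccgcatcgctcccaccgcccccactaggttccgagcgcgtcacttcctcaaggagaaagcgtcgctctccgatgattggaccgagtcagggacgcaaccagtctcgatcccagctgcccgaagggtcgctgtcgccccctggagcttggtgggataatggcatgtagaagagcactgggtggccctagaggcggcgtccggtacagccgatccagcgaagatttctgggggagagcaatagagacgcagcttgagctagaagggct
Rab7: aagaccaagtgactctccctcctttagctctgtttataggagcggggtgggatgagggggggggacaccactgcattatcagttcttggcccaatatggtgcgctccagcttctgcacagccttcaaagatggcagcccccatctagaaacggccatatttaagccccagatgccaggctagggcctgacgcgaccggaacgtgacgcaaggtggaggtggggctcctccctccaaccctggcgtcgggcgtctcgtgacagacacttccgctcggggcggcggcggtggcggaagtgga
Rabl3: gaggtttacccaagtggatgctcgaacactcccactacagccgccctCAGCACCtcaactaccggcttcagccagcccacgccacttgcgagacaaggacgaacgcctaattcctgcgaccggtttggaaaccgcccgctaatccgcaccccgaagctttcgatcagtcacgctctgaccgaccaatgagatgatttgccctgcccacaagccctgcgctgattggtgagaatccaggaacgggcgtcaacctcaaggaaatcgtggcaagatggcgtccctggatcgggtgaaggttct
Rab8b: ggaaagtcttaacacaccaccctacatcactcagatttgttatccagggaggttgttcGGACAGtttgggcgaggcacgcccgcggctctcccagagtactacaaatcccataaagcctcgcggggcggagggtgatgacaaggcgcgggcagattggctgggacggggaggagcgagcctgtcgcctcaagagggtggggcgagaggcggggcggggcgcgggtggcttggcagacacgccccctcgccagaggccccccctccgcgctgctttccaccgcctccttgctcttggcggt
Windows were found for 58 of the 70 tested members. Searched on both strands, with letters that do not overlap each other, CAGCACC was present in 8 of 75 member windows (10.67%) and in 7.14% of all 32851 windows. GGACAG was present in 12 of 75 (16%) and in 22.2% of all windows. Of the 14 called members with a window, Rab2b and Rabl3 held the first and Rab8b the second, and each match read in the direction of the gene. The Rab2b match starts 250 bases before the annotated start, the Rabl3 match 203 and the Rab8b match 192 bases before it. Rab2b rose whereas Rabl3 and Rab8b fell. The member windows had a median GC content of 61.0%, against 52.7% over all windows. A match is a description of letters and no match says only that these letters are not in this window.

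Rab genes changed in both directions, with every gene mean over all 6 arrays under 1.5-fold. Of the 71 members, 70 had a value on all 6 arrays and were tested. A gene was called when its adjusted p in limma, over 19019 genes, was under 0.05. Of the 70, 8 were called higher (11.4%) and 7 lower (10%). Over all genes 5.88% were called higher, 9.11% lower and 15.0% in either direction. An unadjusted p under 0.05 was found for 25 of 70 members and for 25.7% of all genes. The ratio had one sign on all 6 arrays for 21 of 70 members (30.0%) and for 17.9% of all genes. The members that rose were Rab6b, Rab6a, Rab2b, Rab22a, Rab34, Rab31, Rabl6 and Rab3c, and those that fell were Rabep1, Rabggtb, Rab7, Rab10, Rab33a, Rabl3 and Rab8b. With all arrays no member mean changed by as much as 1.5-fold, and over all genes 193 of 19019 were called with such a change. Rabep1 passed 1.5-fold without array 1 (-0.60) and without array 4 (-0.62). The median absolute mean was 0.065 over the members and 0.034 over all genes. Single spots of some members moved further than the gene means, as given below. The largest fall was 1.48-fold (Rabep1) and the largest rise 1.39-fold (Rab6b). The median of the 70 means was 0.014, beside 0.0025 over all genes. Rab17, an epithelial Rab, had no value on array 2 and was not tested with the others; its ratios on the 5 other arrays lay between -0.21 and 0.079.

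The calls depend on single arrays. Of the 15 called members, 6 (Rab6a, Rab6b, Rab2b, Rab33a, Rab7 and Rabep1) were called whichever array was left out. The other 9 lost their call without at least 1 array and kept their sign. With array 1 left out, 20 members were called higher and 9 lower. Omitting array 2, 3, 4, 5 or 6 in turn gave 5 and 5, 4 and 5, 4 and 4, 3 and 3, and 3 and 4. The share of members called was 14.3%, 12.9%, 11.4%, 8.57% and 10% in these 5 fits, beside 9.51%, 10.6%, 8.21%, 5.87% and 6.38% of all genes. On the 3 arrays with siRNA in Cy5 none was called in limma, where 9 of all genes were, and on the 3 arrays with siRNA in Cy3 15 were higher and 8 lower (32.9% of members, beside 22.4% of all genes). With all 6 arrays no dye term was called for any member, nor for any of all genes. Array 1 is among the arrays with siRNA in Cy5, and the dye term without it was not examined.

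**Figure D1:**
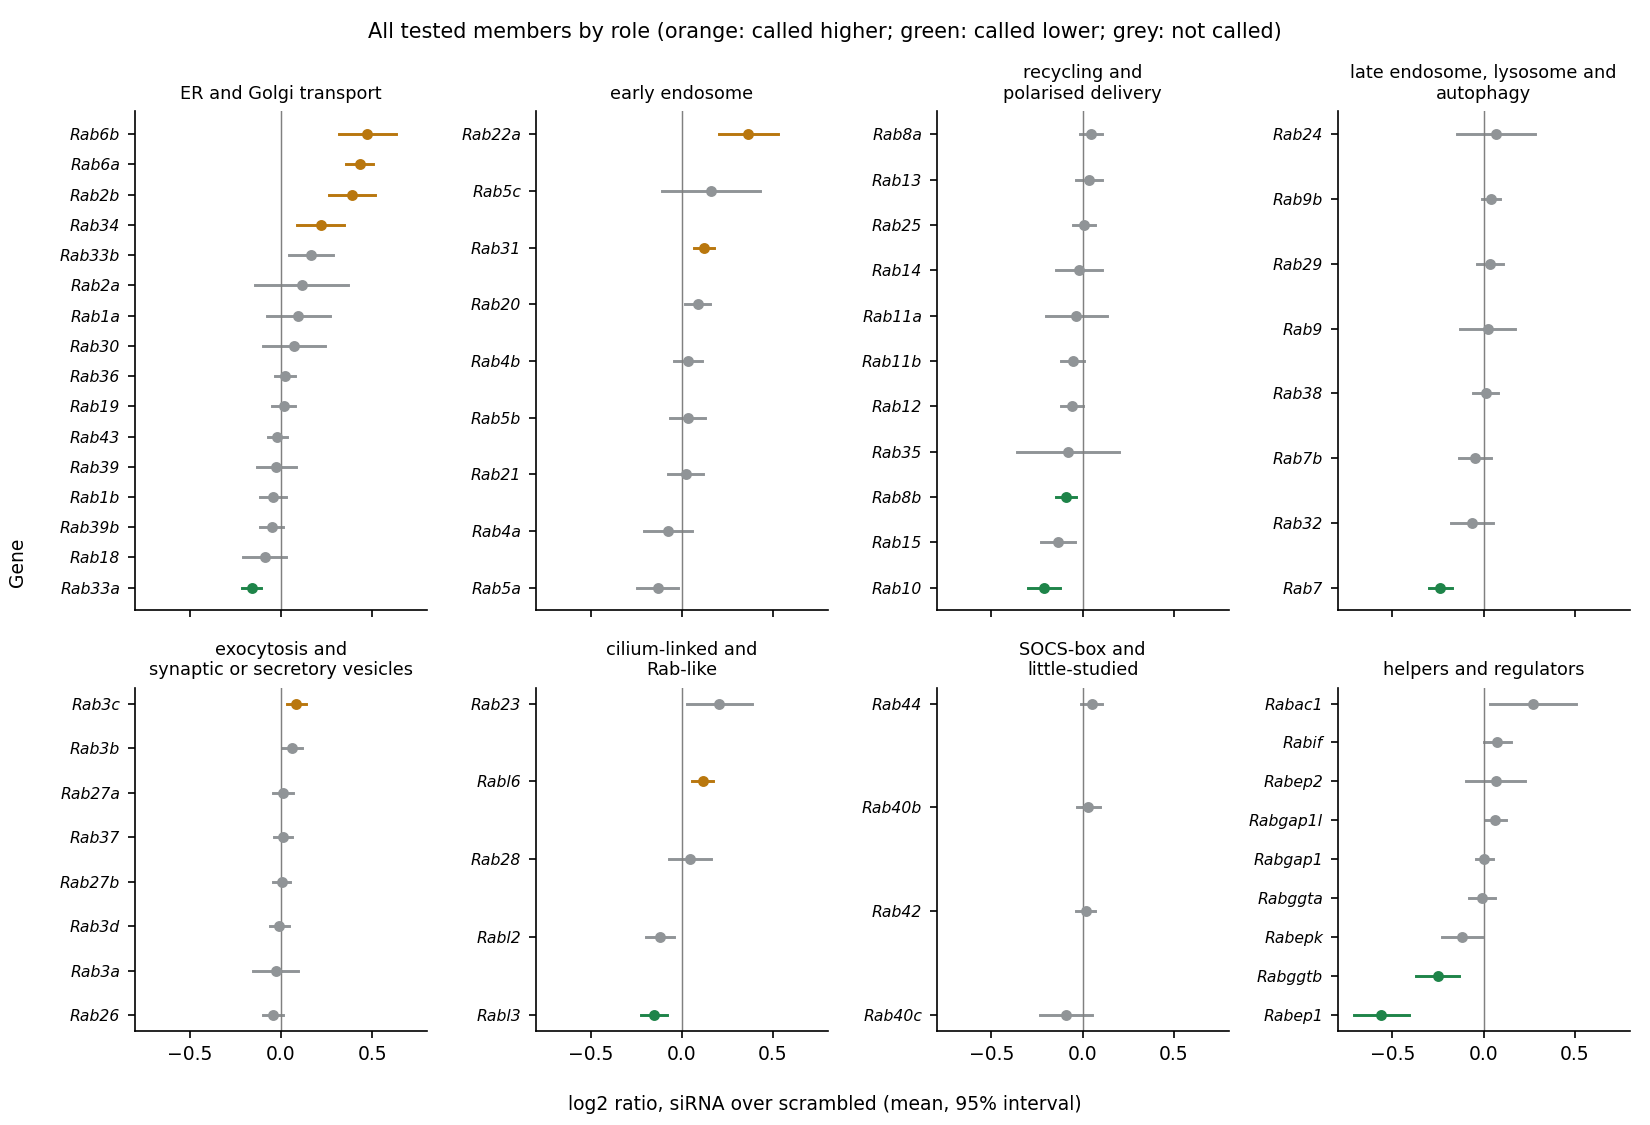
Mean log2 ratio of siRNA over scrambled (x axis) with its 95% interval from the limma fit for each of the 70 tested members, in 8 panels by role. Orange marks genes called higher, green genes called lower and grey genes not called. Of the 8 genes called higher, 4 are in the panel of ER and Golgi transport, the largest with 16 genes.

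The Rabs of the endoplasmic reticulum and Golgi, the largest role group with 16 of the 70 members, held 4 of the 8 genes that rose. The role groups are small, and their counts stand beside 5.88% of all genes called higher and 9.11% lower. Without array 1, 25.9% of all genes were called, and without another array 5.87% to 10.6%. No role group was tested as a set. Of 16 measured, 4 rose and 1 fell. Rab6a, which directs transport at the Golgi, was at 0.25, 0.42, 0.45, 0.52, 0.51 and 0.45 on arrays 1 to 6. All arrays were above 0 and array 1 was the lowest. Its mean was 0.43 ± 0.097 (SD, n = 6), or 1.35-fold, with an adjusted p of 0.000731, the smallest of the family. Rab6b, a Rab6 form known from brain, stood at 0.076 on array 1, with the 5 other arrays from 0.48 to 0.60. It had a mean of 0.47 ± 0.20 and an adjusted p of 0.00567. Rab2b, of the pair that acts between endoplasmic reticulum and Golgi, was at 0.13, 0.50, 0.46, 0.35, 0.51 and 0.41 on arrays 1 to 6. All 6 arrays were above 0, the mean was 0.39 ± 0.14 (1.31-fold) and the adjusted p 0.00529.

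Rab34, a Golgi Rab also needed for cilia, stood at -0.11 on array 1, with arrays 2 to 6 from 0.22 to 0.37. It rose, with a mean of 0.22 ± 0.17 and an adjusted p of 0.0390, but was not called without array 2, 3, 4, 5 or 6 (adjusted p of 0.106 to 0.154). Rab33a, a Golgi-linked Rab found in brain, was the member of this group that fell, at -0.20, -0.25, -0.19, -0.065, -0.15 and -0.11 on arrays 1 to 6. All arrays were below 0, the mean was -0.16 ± 0.066 (adjusted p = 0.00514) and the gene rests on 1 spot. Its relative Rab33b, which binds the autophagy protein Atg16l1, was not called, at 0.17 ± 0.13 (adjusted p = 0.0780). The remaining 10 (Rab1a, Rab1b, Rab2a, Rab18, Rab19, Rab30, Rab36, Rab39, Rab39b and Rab43) were not called, with means from -0.088 for Rab18 to 0.11 for Rab2a. Rab30 owed its mean of 0.074 to array 5, at 0.54, with the other 5 arrays between -0.10 and 0.031. Without array 1, 7 genes of the group were higher and 1 lower, and without any other array 3 were higher and 1 lower.

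Early endosomal Rabs included 2 that rose and none that fell, of 9 measured. Rab22a, which acts in endosomal sorting and recycling, was at 0.012, 0.53, 0.42, 0.30, 0.46 and 0.46 on arrays 1 to 6. Array 1 was near 0 and the others were high. The mean was 0.36 ± 0.19 (1.29-fold, adjusted p = 0.0154), and the call was lost without array 3, 5 or 6 (adjusted p = 0.0541, 0.0772 and 0.0735). Its close relative Rab31, which acts between the Golgi and endosomes, rose less, at 0.051, 0.16, 0.068, 0.17, 0.15 and 0.13, with a mean of 0.12 ± 0.052 (adjusted p = 0.0156). It was not called without array 4, 5 or 6 (adjusted p = 0.0681, 0.0721 and 0.0596).

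The Rab5 genes, whose products drive fusion of early endosomes, were not called. Rab5a stood at -0.44 on array 1, with the others from -0.11 to -0.020 and a mean of -0.13 ± 0.15 (adjusted p = 0.127). It had 11 spots listed for 1 transcript, the most of any member. Their SD on an array was 0.045 to 0.070 on arrays 2 to 6 and 0.14 on array 1. The spots ran from -0.60 to -0.073 on array 1 and from -0.15 to 0.10 on array 5. Rab5c, on 1 spot, ranged from -0.37 on array 1 to 0.71 on array 4 and averaged 0.16 ± 0.38, the interval of its mean running from -0.11 to 0.43. Rab5b, Rab4a, Rab4b, Rab20 and Rab21 had means from -0.076 to 0.086. Without array 1 the group had 3 higher (with Rab4b) and 1 lower (Rab5a). Without array 2 it had 2 higher, without array 3 or 4 1 higher and without array 5 or 6 none.

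Among 11 Rabs of recycling endosomes and polarised delivery, 2 fell and none rose. Rab10, which acts in delivery to the plasma membrane and in axon growth, was at -0.38, -0.13, -0.18, -0.17, -0.16 and -0.23 on arrays 1 to 6. All arrays were below 0, with a mean of -0.21 ± 0.090 (adjusted p = 0.0110), and the call was lost without array 5 or 6 (adjusted p = 0.0533 and 0.0576). Rab8b, of the pair known for polarised secretion, stood at -0.0093 on array 1 and -0.046 on array 3, with the remaining 4 arrays from -0.13 to -0.12. Its mean was -0.092 ± 0.051 (adjusted p = 0.0399), not called without array 2, 3, 4, 5 or 6 (adjusted p of 0.0919 to 0.137). Rab8a was at 0.047 ± 0.11 and not called. Rab35, a Rab of the recycling route, stood at -0.87 on array 1, the lowest gene mean of any member on any array, with the others from -0.026 to 0.18. Rab11a, the recycling endosome Rab, stood at -0.45 on array 1, with the others from 0.013 to 0.088. Rab11b, Rab12, Rab13, Rab14, Rab15 and Rab25 were not called, with means from -0.13 for Rab15 to 0.036 for Rab13. Without array 1 the group again had 2 lower, without array 2, 3 or 4 it had 1, and without array 5 or 6 none, with none higher in any of these fits.

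Of 8 Rabs of late endosomes, lysosomes and autophagy, only Rab7 was called. Rab7, which directs late endosomes to lysosomes, was at -0.30, -0.19, -0.18, -0.19, -0.26 and -0.29 on arrays 1 to 6. The arrays lay close together and array 1 did not stand apart. The mean was -0.24 ± 0.055 (SD, n = 6), 1.18-fold lower, with an adjusted p of 0.00284, and it was called whichever array was left out (highest adjusted p 0.0242). Rab7b was at -0.049 ± 0.11. Rab9, Rab9b, Rab24, Rab29, Rab32 and Rab38 had means from -0.065 for Rab32 to 0.067 for Rab24. Without array 1, Rab9 (0.097) and Rab24 (0.17) were called higher, which no other left-out array gave.

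The Rabs of regulated secretion hardly moved. Of 8 measured, Rab3c, a synaptic vesicle Rab, was called higher, at 0.044, 0.072, 0.089, 0.16, 0.054 and 0.090 on arrays 1 to 6. All 6 arrays were above 0, but the mean was 0.085 ± 0.040 (1.06-fold, adjusted p = 0.0476), and it was not called without array 2, 3, 4, 5 or 6 (adjusted p of 0.0931 to 0.157). Rab3a, the main Rab3 form of synaptic vesicles, was at -0.028 ± 0.14, with an interval from -0.15 to 0.094. It was at -0.22 on array 1 and 0.16 on array 3. Rab3b, Rab3d, Rab26, Rab27a, Rab27b and Rab37 had means from -0.042 for Rab26 to 0.061 for Rab3b. Rab27a and Rab27b, known for secretory granules and exosome release, stood at 0.012 ± 0.052 and 0.0050 ± 0.028.

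Among 5 cilium-linked and Rab-like genes, Rabl3 fell and Rabl6 rose. Rabl3 was at -0.073, -0.13, -0.19, -0.16, -0.27 and -0.10 on arrays 1 to 6, all below 0, with a mean of -0.15 ± 0.068 (adjusted p = 0.0163). It was not called without array 2, 3, 4 or 5 (adjusted p of 0.0545 to 0.0646). Rabl6 was at 0.045, 0.16, 0.080, 0.17, 0.11 and 0.12, all above 0, with a mean of 0.11 ± 0.047 (adjusted p = 0.0217), not called without array 2, 3, 4, 5 or 6 (adjusted p of 0.0583 to 0.0878). Rabl2, which acts in intraflagellar transport, was below 0 on all 6 arrays at -0.12 ± 0.079 and missed the threshold (adjusted p = 0.0526). Rab23, a regulator of hedgehog signalling, stood at -0.18 on array 1, with the others from 0.17 to 0.38, and was not called at 0.21 ± 0.20 (adjusted p = 0.137). Rab28 was at 0.045. Without array 1 all 5 were called, 3 higher (Rab23, Rab28 and Rabl6) and 2 lower. Rab28 was at 0.20 and 0.29 on arrays 2 and 3 but at -0.0315, -0.006 and -0.089 on arrays 4 to 6. The dye term takes this split by dye orientation out of the spread. The fit without array 1 called 41.4% of the members and 25.9% of all genes. None of 4 genes of the Rab40 group and little-studied Rabs (Rab40b, Rab40c, Rab42 and Rab44) was called in limma, and none had an unadjusted p under 0.05. Rab44 had the smallest p of these, at 0.15, 0.058, 0.064, 0.018, -0.042 and 0.043 on arrays 1 to 6 (adjusted p = 0.270). Array 5 alone was below 0.

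The Rab helpers held the largest change of the family. Of 9 measured, 2 fell and none rose. Rabep1 encodes rabaptin-5, which binds active Rab5 and Rab4 on early endosomes. It was at -0.44, -0.77, -0.57, -0.30, -0.57 and -0.71 on arrays 1 to 6, all below 0, with array 4 the highest. The mean was -0.56 ± 0.17 (SD, n = 6), 1.48-fold lower, with an adjusted p of 0.00298 and a call whichever array was left out (highest adjusted p 0.0252). Rabggtb, the catalytic subunit of Rab geranylgeranyl transferase, stood at -0.53 on array 1, with the others from -0.25 to -0.15. It fell, with a mean of -0.25 ± 0.14 (adjusted p = 0.0186), and was not called without array 4, 5 or 6 (adjusted p = 0.0672, 0.0779 and 0.0841). The other subunit, Rabggta, was at -0.0087 ± 0.066.

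Rabac1, a prenylated Rab acceptor of the Golgi, varied most. It was at -0.60 on array 1, 0.12 and 0.16 on arrays 2 and 3, and 0.62, 0.66 and 0.68 on arrays 4 to 6. The arrays with siRNA in Cy3 lay above those with it in Cy5, though its dye term was not called (adjusted p = 0.429), and with all arrays the gene was not called (0.27 ± 0.50, adjusted p = 0.139). Rabep2, Rabepk, which binds Rab9, Rabif, a chaperone-like factor for Rabs without nucleotide, Rabgap1 and Rabgap1l had means from -0.12 for Rabepk to 0.075 for Rabif. Without array 1, 4 of the 9 were higher and 2 lower.

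**Figure D2:**
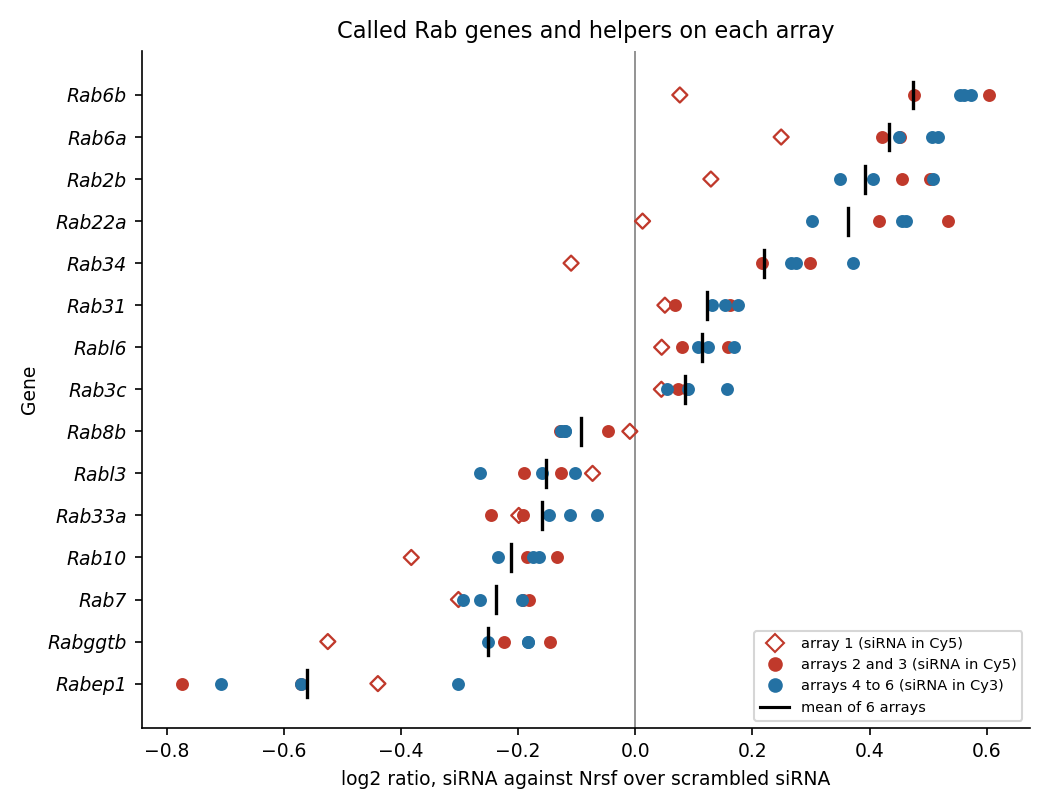
Log2 ratio of siRNA over scrambled on each of the 6 arrays (x axis) for the 15 called members (y axis), with array 1 as open diamonds, arrays 2 and 3 in red, arrays 4 to 6 in blue and the mean as a bar. Array 1 lies nearest to 0 or beyond it for every gene called higher and for Rabl3 and Rab8b, and lowest for Rab10, Rabggtb and, narrowly, Rab7.

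The spots of a gene often did not move alike. Of the 15 called members 14 had several spots, and for 2 of these, Rab7 and Rabep1, every spot was called. For the other 12 only some were. Over all genes with several spots, every spot was called for 299 of 1546 called genes (19.3%), beside 14.3% here. Of the 144 member spots tested, 11 were called higher and 10 lower. Over all spots 4.21% were called higher, 6.85% lower and 11.1% in either direction. The widest gap lay within Rab22a, whose 3 spots for 1 transcript were at 0.89, 0.18 and 0.022. The spots of Rab6b were at 0.88 and 0.072, those of Rab6a at 0.74 and 0.12 and those of Rab2b at 0.78 and -0.00017. In each of these 4 genes, 1 spot was called and the rest were not. The gene means above average a spot that moved with spots that did not.

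Spots of Rab10 listed for 1 transcript lay at -0.44, -0.54 and 0.11, the first pair called lower, and the spot listed for another transcript at 0.017. For Rab34 the spots were at 0.49, 0.11 and 0.051, for Rabl6 at 0.31, 0.033 and -0.0047, and for Rab31 at 0.25 and -0.0048. Rabl3 had spots at -0.28 and -0.026. The spots of Rabggtb were at -0.31 (called), -0.44 and -0.0017 (not called), and the spot at -0.44 stood at -1.13 on array 1. Those of Rab7 were at -0.28 and -0.19, those of Rabep1 at -0.74 and -0.39, all 4 called. Another 3 of the 43 members with several spots had a called spot without being called themselves, as did 806 of all 8211 genes with several spots. Rab1a, the Rab of transport from endoplasmic reticulum to Golgi, had spots at 0.43 (called) and -0.24 listed for 1 transcript. Rab23 had 1 of 3 spots called (0.50), and Rabgap1l 1 of 4 (0.32). With the median over spots in place of the mean, 4 members were called higher and 6 lower. With the first listed spot the numbers were 5 and 5.

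**Figure D3:**
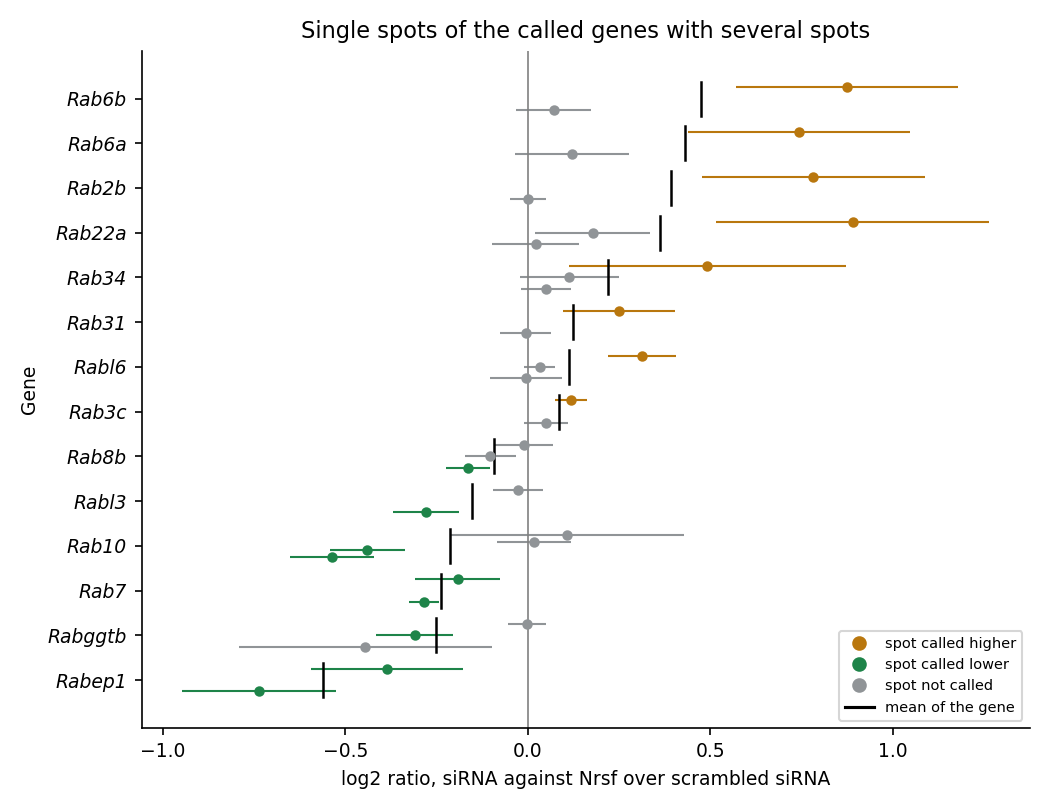
Mean log2 ratio of siRNA over scrambled (x axis) with its SD over 6 arrays for every spot of the 14 called members with several spots (y axis). Orange spots were called higher, green lower and grey not called, and a black bar gives the gene mean; in Rab6b, Rab6a, Rab2b and Rab22a 1 orange spot lies above 0.7 and the others below 0.2.

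Related genes were set against each other on the same arrays. All 24 pairs of members with a shared name stem were compared over the 6 arrays by turning the signs of the differences in every way (exact permutation, two-sided), whose smallest p is 0.0312. After adjustment over the 24 pairs none passed, the lowest adjusted p being 0.125, and 6 pairs differed with one sign on all 6 arrays. Rabep1 lay below Rabep2 by 0.63 ± 0.31 on the log2 scale (difference -0.63, lower on 6 of 6 arrays, exact p = 0.0312, adjusted p = 0.125). Rab33a lay below Rab33b (difference -0.33 ± 0.17) and Rabggtb below Rabggta (Rabggta minus Rabggtb 0.24 ± 0.10). In these 3 pairs the values of the 2 genes did not overlap over the arrays. How often other pairs of genes separate in this way was not tested. Rab2b was above Rab2a (Rab2a minus Rab2b -0.28 ± 0.19), Rab7 below Rab7b (-0.19 ± 0.15) and Rab5a below Rab5c (-0.29 ± 0.30). Rab6a and Rab6b differed by -0.042 ± 0.12 (Rab6a minus Rab6b, exact p = 0.375), with single arrays from -0.18 to 0.17. Different probes stand behind each gene, and their part in these differences was not tested.

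Array 1 was the lowest of the 6 arrays for 39 of 70 members (55.7%) and for 34.7% of all genes. On it 45 members were below 0 (64.3%), as were 53.6% of all genes. Without it 29 members were called, 41.4% of the 70, and 25.9% of all genes were. All 15 members called with all arrays were among them, and 14 others joined, 12 higher and 2 lower. These were Rabac1, at 0.39 (adjusted p = 1.05e-05), Rab23 at 0.30, Rab2a at 0.25, Rab33b at 0.22, Rab1a at 0.18, Rab24 at 0.17, Rabep2 at 0.14, Rabif at 0.11, Rab28 at 0.10, Rab9 at 0.097, Rabgap1l at 0.083 and Rab4b at 0.069. Rabl2 (-0.14) and Rab5a (-0.078) were called lower. These p-values reflect scatter within a dye orientation, since the dye term takes out the difference between orientations. Rabac1 was at 0.12 and 0.16 on arrays 2 and 3 and at 0.62 to 0.68 on arrays 4 to 6. Rab1a was at 0.38 and 0.37 on arrays 2 and 3 but at -0.058, 0.012 and 0.021 on arrays 4 to 6. Rab28 was likewise above 0 on arrays 2 and 3 and below 0 on arrays 4 to 6. Rab2a stood at -0.46 on array 1, with the others from 0.081 to 0.35. Why array 1 differs was not tested.

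**Figure D4:**
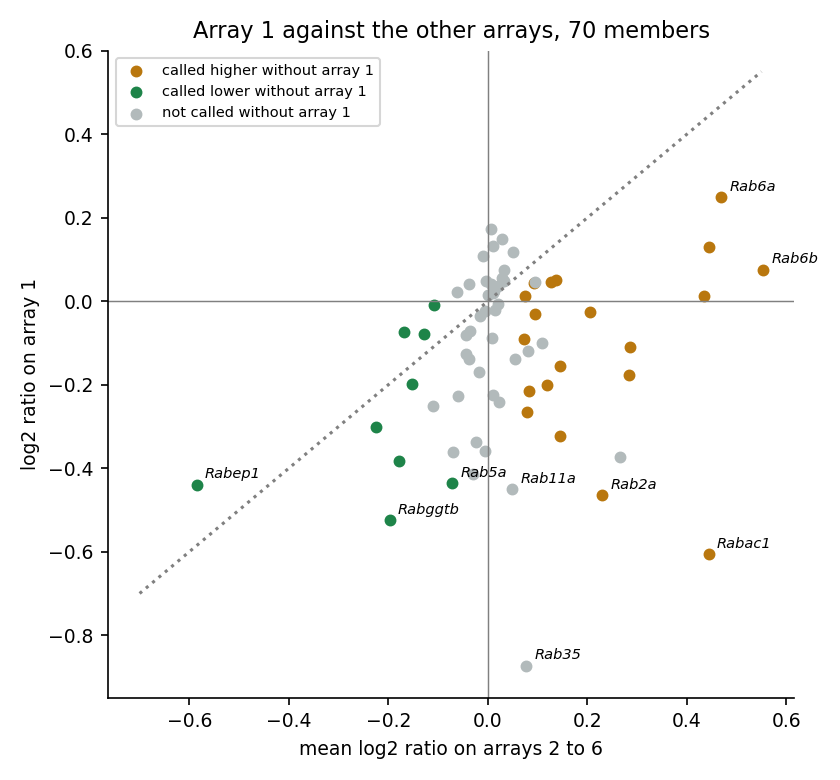
Log2 ratio on array 1 (y axis) against the mean log2 ratio on arrays 2 to 6 (x axis) for the 70 tested members, coloured by their call without array 1; the dotted line marks equal values. Most points with a positive mean lie below the line, and Rab35, at -0.87 on array 1, lies farthest down.

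Other genes of the Rab cycle also changed in both directions. The list counts stand beside 15.0% of all genes called with all arrays, 5.88% higher and 9.11% lower. Without array 1, 25.9% of all genes were called, and without another array 5.87% to 10.6%. No list was tested as a set. Of 32 exchange factors 4 rose and 1 fell. Dennd6a, an exchange factor for Rab14, stood at 0.13 on array 1, with the others from 0.91 to 1.05 and a mean of 0.84 ± 0.35 (1.79-fold, adjusted p = 0.00592). Its 2 spots, listed for different transcripts, were at 1.68 and 0.0023. Rgp1, which with Ric1 activates Rab6, was at -0.0015, 0.31, 0.46, 0.40, 0.52 and 0.47 on arrays 1 to 6. Array 1 alone was not above 0, and the mean was 0.36 ± 0.19 (adjusted p = 0.00935, and 0.0553 and 0.0503 without array 5 or 6), with spots at 0.79 and -0.065. Ccz1, a part of the exchange factor for Rab7, was at -0.78, -0.26, -0.28, -0.36, -0.36 and -0.36, all below 0, with a mean of -0.40 ± 0.19 (1.32-fold lower, adjusted p = 0.0118, and 0.0511 to 0.0616 without array 4, 5 or 6). Mon1b, a partner of Ccz1, rose, at 0.17 ± 0.093 (adjusted p = 0.0239, and 0.0633 to 0.0972 without any array other than array 1). The list had 6 higher and 2 lower without array 1 and 1 or 2 higher and 0 to 2 lower without any other array.

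Of 14 subunits of TRAPP, the complex that activates Rab1, 3 fell and 1 rose. Trappc2l was at -0.96, -0.99, -0.88, -1.03, -1.05 and -1.02 on arrays 1 to 6. The arrays hardly differed, array 1 included, and the mean of -0.99 ± 0.063 was 1.98-fold lower (adjusted p = 2.17e-05) on 1 spot. Trappc5 (-0.16 ± 0.058, adjusted p = 0.00593) and Trappc13 (-0.19 ± 0.11, adjusted p = 0.0311) also fell. Trappc13 was not called without array 2, 4, 5 or 6 (adjusted p of 0.0939 to 0.123). Trappc2, listed beside them, rose, at 0.44 ± 0.22 (adjusted p = 0.0144), not without array 2, 5 or 6 (adjusted p of 0.0508 to 0.0748). Without array 1 the list had 7 higher and 3 lower, and without any other array 0 or 1 higher and 2 or 3 lower. Of 36 GTPase-activating proteins 5 fell and 1 rose. Tbc1d22a (-0.29 ± 0.069, adjusted p = 0.000594), Tbc1d19 (-0.27 ± 0.15) and Grtp1 (-0.17 ± 0.075) fell. Tbc1d5, which acts on Rab7, rose (0.25 ± 0.090), with spots at 0.62, 0.39, -0.0035 and -0.0048. Grtp1 was not called without array 5 (adjusted p = 0.0528). Without array 1, 7 were higher and 5 lower, and without any other array 1 was higher and 2 or 3 lower.

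Of 43 measured effectors, which bind active Rabs, 2 rose and 3 fell. Bicd2, a dynein adaptor that binds Rab6, rose (0.19 ± 0.12, adjusted p = 0.0414), not without array 2, 3, 4, 5 or 6 (adjusted p of 0.0852 to 0.160). Myrip, which links Rab27 to myosin, rose (0.22 ± 0.078, adjusted p = 0.00795) and was called whichever array was left out. Rufy1, which binds Rab4 and Rab14, fell (-0.12 ± 0.062, adjusted p = 0.0354), as did Acap2, which binds Rab35 (-0.11 ± 0.031, adjusted p = 0.0161). Rufy1 was not called without array 2, 4, 5 or 6, nor Acap2 without array 2, 5 or 6, with adjusted p-values up to 0.128. The spots of Acap2 were at -0.33 and -0.20 (called lower) and at 0.019, -0.033 and -0.014 (not called). With the median over spots Acap2 was not called. The effectors had 7 higher and 3 lower without array 1, and 1 higher and 0 to 2 lower without any other. Of 16 tethering genes of the exocyst, HOPS and CORVET complexes 2 rose and 3 fell. Vps41, a HOPS subunit that acts with Rab7, fell (-0.28 ± 0.091, adjusted p = 0.00183, called whichever array was left out). Exoc2, an exocyst subunit, fell (-0.17 ± 0.085, not called without array 3, 5 or 6, with adjusted p-values up to 0.0766). The spots of Exoc2 included -0.37 (called lower) and -0.026. Vps33a rose (0.22 ± 0.11, not without array 2, 4, 5 or 6) and Vps11 rose (0.13 ± 0.086, not without array 2, 3, 4, 5 or 6), with adjusted p-values up to 0.133. Without array 1, 5 were higher and 4 lower, and without any other array 0 or 1 higher and 1 or 2 lower. None of 5 genes of GDP dissociation inhibitors, Rab escort and prenyl processing was called in limma with all arrays, where 2 had an unadjusted p under 0.05. Gdi2, an inhibitor that keeps Rabs in the cytosol, stood at -0.58 on array 1, with the others from -0.20 to -0.054 (mean -0.20 ± 0.19, adjusted p = 0.0527), and was called without array 1 (-0.14, adjusted p = 0.00210).

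The list medians were 0.0056 for exchange factors, 0.0012 for TRAPP, -0.0013 for GTPase-activating proteins, 0.0015 for effectors, -0.039 for tethering genes and -0.0062 for the inhibitor and prenyl list, beside 0.0025 over all genes.

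**Figure D5:**
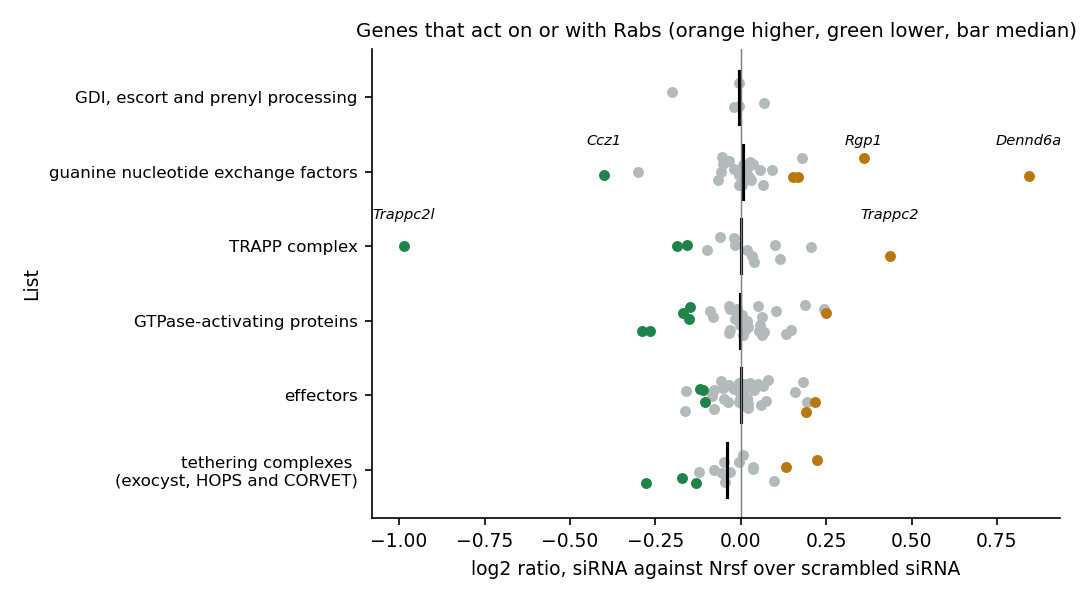
Mean log2 ratio of siRNA over scrambled (x axis) for every measured gene of 6 lists that act on or with Rabs (y axis); orange genes were called higher, green lower and grey not called, and a black bar marks the list median. Trappc2l (-0.99) and Dennd6a (0.84) lie farthest from 0.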

How the data were processed

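Total RNA of N18 cells was isolated with Trizol and labelled by linear amplification, per the labels' protocols. The authors deposited log2 ratios (log base inferred) of the channels, normalized and already turned to a common direction in both dye orientations: spots with a gene correlated between orientations at 0.36 to 0.71 and spots without one at -0.67 to -0.40. How the arrays were scanned, background-corrected and normalized is not stated in the sources used here. Array medians lay between -0.004 and 0.005. Ratios carry no signal over background, and precision is limited by there being 6 arrays.

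Spots were named through the platform table, and symbols updated through gene identifiers to the GRCm38.p6 table (31906 of 32042 single-gene spots matched). Spots with values on all 6 arrays were averaged per gene (19019 genes). R 4.3.3 with limma 3.58.1 fitted the mean ratio and a dye term (4 residual degrees of freedom, adjusted p after Benjamini and Hochberg over all genes, threshold 0.05). SDs are over the 6 arrays and include dye differences, whereas the p-values of this fit reflect scatter within a dye orientation. On data simulated for 19019 genes, 59% of changes of 0.2 and 86% of changes of 0.5 on the log2 scale were recovered, with 10 false calls. Changes were set in 200 of these genes, whereas 15.0% of all genes were called in the data, and recovery after adjustment depends on this share. The noise was drawn separately for each gene and array, so no simulated array stood apart as array 1 does. The rates may therefore not hold for these data. Alternatives were other models, other spot summaries, other scalings and fits without single arrays. Members and lists were chosen with earlier results of these data known, and the added counts per list without single arrays after seeing the data. Every member is accounted for by role; values are given for called members or, where a role had none, the member with the smallest p, and up to 4 called genes per other list, and some further values were given after they were seen.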

Additional observations from a re-analysis of the deposited data

Results flagged for a closer look

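Among the 45 genes named by rule, 9 had 1 array far from the other 5, in 8 cases array 1. The genes were mostly chosen by their p on these arrays and share array 1, so no rate by chance is given. Among members these were Rab6b at 0.076 on array 1 (next lowest 0.48), Rab6a at 0.25 (next 0.42), Rab34 at -0.11 (next 0.22) and Rabggtb at -0.53 (next -0.25). Among other genes these were Dennd6a at 0.13 (next 0.91), Ccz1 at -0.78 (next -0.36), Gdi2 at -0.58 (next -0.20) and Exoc2 at -0.012 (next -0.16) on array 1, and Trappc13 at 0.033 on array 3 (next -0.19).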

How the results depend on the processing

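The 8 members called higher and 7 called lower became 5 and 5 with the first listed spot per gene, 4 and 6 with the median over spots, 1 and 3 with an unmoderated test, 15 and 9 with array weights, 0 and 0 on the Cy5 arrays alone, and 15 and 8 on the Cy3 arrays alone. Leaving out 1 array gave 3 to 20 higher and 3 to 9 lower. Without the dye term, with spots on at least 4 arrays, arrays scaled alike, quantile normalization or a robust prior, both counts stayed within 1.5 times. The share of all genes called moved too, to 4.57% in the unmoderated test and 24.9% with array weights. All 15 called members kept their sign in every fit but 1: Rabl6 was at -0.0047 on its first listed spot. Among other named genes, Tbc1d5 (-0.0048) and Vps11 (-0.032) turned sign there. Rest was at -0.054 (adjusted p = 0.742) on its first listed spot and at -0.28 (adjusted p = 0.205) on the Cy5 arrays alone; without single arrays it lay between -0.39 and -0.33. The pairing is part of every fit: each siRNA sample shares its number and its array with 1 scrambled sample, and each ratio is the difference within that pair. An unpaired fit could not be made from ratios. Background correction, a filter on dim probes and slides as a block could not be tried on ratios.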
